A study of Mus musculus with 9 samples.

Results

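The genes described here are 40 genes of DNA replication and of the G1/S step of the cell cycle, most of them known targets of the E2F transcription factors. The members were listed by symbol, and 40 of 40 were found among the 54146 genes of the table. All 40 passed the filter on low values (a normalized count of 10 or more in 4 or more mice) and belonged to the 14410 genes tested, and each was also at 10 or more in every mouse. RNA-seq was performed on colonic mucosa of C57BL/6J mice at 15 wk of age, and the methods name colonic crypts as the source of the RNA. The control group was 5 ApcMin/+ mice (2 females and 3 males), which carry 1 mutant germline copy of Apc, the gene that restrains Wnt signaling. The other group was 4 ApcMin/+; p16cis/cis mice (3 females and 1 male), which carry the same Apc mutation and, in both copies of p16, a knocked-in cis element that draws DNA methylation to the promoter. Every mouse of both groups therefore carried the ApcMin/+ genotype, and no mouse was wild type for Apc. Each mouse was 1 replicate.

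p16 is an inhibitor of the cyclin D kinases CDK4 and CDK6. These kinases phosphorylate the RB protein, and RB without phosphate holds E2F factors in an inactive state, so that p16 acts upstream of the genes that a cell needs to enter S phase. The products of these genes load and fire origins, copy both DNA strands, make deoxynucleotides and pack new DNA into chromatin. In the colon they are used mainly by the dividing progenitor cells in the lower part of the crypt. The question was whether the replication genes were higher in mice with the methylation-prone p16 allele.

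To show what the members share in their promoters, the RefSeq windows of GRCm38.p6 were searched, each with 250 bases before and 50 bases after a gene's start. A window was available for 34 of the 40 members and for 27025 gene symbols in all. The E2F letters searched were TTTCCCGC, TTTCGCGC, TTTGCCGC and TTTGGCGC on both strands. They were in the windows of 14 of the 34 members (41.2%), against 2.60% of all symbols. The following lines show the 120 bases just before the start of 4 members in which the letters fall in that stretch, read 5′ to 3′ along the gene, with the E2F letters in capitals. They are Mcm6 (chr1:128359706-128359825, minus strand), Orc1 (chr4:108579334-108579453, plus strand), Rfc3 (chr5:151651209-151651328, minus strand) and Hells (chr19:38930870-38930989, plus strand).
Mcm6: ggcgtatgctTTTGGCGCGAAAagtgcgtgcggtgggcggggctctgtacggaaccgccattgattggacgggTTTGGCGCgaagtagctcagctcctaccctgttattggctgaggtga
Orc1: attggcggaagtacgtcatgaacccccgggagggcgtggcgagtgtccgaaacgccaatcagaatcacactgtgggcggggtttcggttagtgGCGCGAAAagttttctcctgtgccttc
Rfc3: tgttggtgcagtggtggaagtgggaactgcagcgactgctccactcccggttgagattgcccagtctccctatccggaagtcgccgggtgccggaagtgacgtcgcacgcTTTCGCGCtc
Hells: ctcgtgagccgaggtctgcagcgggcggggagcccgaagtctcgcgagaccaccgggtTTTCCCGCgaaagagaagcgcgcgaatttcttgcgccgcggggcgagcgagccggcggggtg

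In Mcm6 the first capital stretch holds a match on each strand, and the 2 matches share bases. The other members with E2F letters in the window were Mcm3, Mcm5, Mcm7, Cdc6, Cdt1, Pola1, Pold1, Lig1, E2f2 and Msh6. By role, the letters were in 4 of 6 helicase genes and 3 of 4 licensing genes with a window, and in 0 of 5 genes of deoxynucleotide supply. Mcm4, Gins1, Gins2, Pole, Rfc2 and Ccne2 were not matched to a window. A pair of other promoter words was counted in the same windows. CCAAT, the letters bound by NF-Y, was in 58.8% of the members and in 41.1% of all symbols. TTTGAA, the cell cycle homology region (CHR) that is typical of mitotic genes, was in 14.7% of the members, 20.2% of all symbols and 72.0% of a list of mitotic genes. A match describes the letters of the window and says nothing of binding, and a window without the letters can still belong to a target of E2F.

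**Figure D1:**
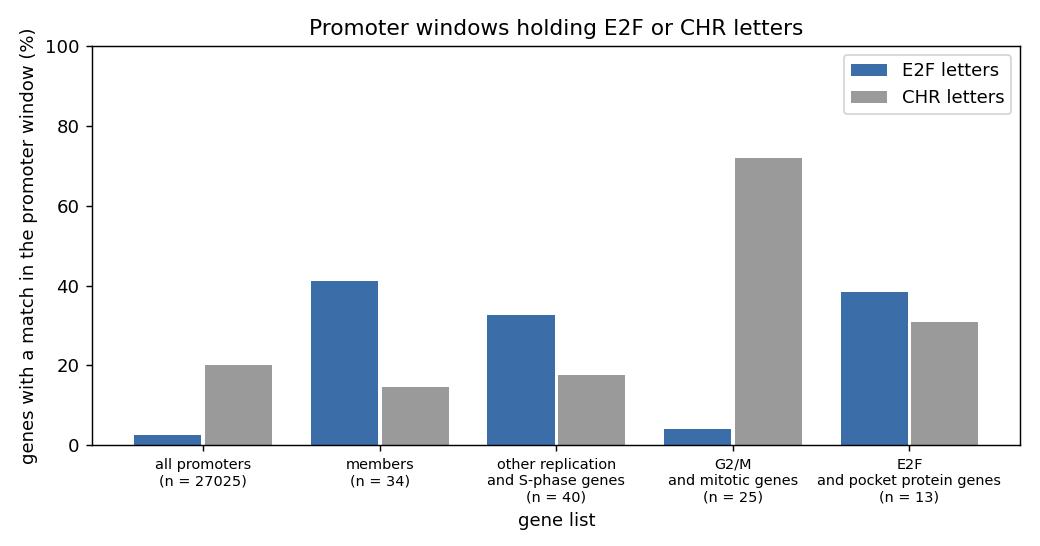
Share of genes (%) whose 300-base promoter window holds the E2F letters (blue) or the CHR letters (gray), for all promoters and for 4 gene lists, with the number of matched genes under each list. The E2F letters were in 41.2% of the members and 4% of the G2/M and mitotic genes, and the CHR letters in 14.7% and 72.0%.

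The libraries held 13523500 to 17885918 reads on genes, and values are normalized counts, that is, counts divided by a size factor of the mouse. Mitochondrial genes took 8.74% to 15.6% of the reads in ApcMin/+ mice and 19.3% to 29.8% in ApcMin/+; p16cis/cis mice, so this share did not overlap between the genotypes and its part in the results cannot be told apart from that of genotype. Cdkn2a, the gene of p16, was listed at 0 in all 9 mice, and a difference in it was not detectable at this depth. Cdkn2b, its neighbor that encodes p15, stood at 900.3 ± 222 (SD, n = 5) and 847 ± 96.4 (SD, n = 4). Whether mice of a genotype shared a litter or a processing day is not given in the sources used here.

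Most replication genes differed between the genotypes by less than the spread between mice. Of the 40 members 22 had a positive log2 fold change in ApcMin/+; p16cis/cis over ApcMin/+ mice and 18 a negative one. The median was 0.10 on the log2 scale, against -0.00414 over all genes tested. The extremes were -0.51 for Mcm4 and 0.74 for Gins1. Fold changes were on the scale of log2(normalized count + 1), on which the change of a gene with few counts comes out too small.

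In limma with Benjamini-Hochberg adjustment over all 14410 genes, 2 members were higher in ApcMin/+; p16cis/cis mice at an adjusted p under 0.05, Rfc2 and Gins2, and 0 were lower. This was 5% of the members, while 16.9% of all genes passed in either direction, 8.14% higher and 8.75% lower. At an unadjusted p under 0.05 there were 8 members, 6 higher and 2 lower, and 4779 of the 14410 genes. No member passed with a fold change over 2, a combination that 3.48% of all genes met. All mice of a genotype lay above all mice of the other in 3 members, Rfc2, Gins1 and Dut, each higher in ApcMin/+; p16cis/cis mice, and in 0 members the other way, where 7.24% and 8.95% of all genes were without overlap.

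The intervals say how large a difference these 9 mice could have hidden. In 32 of the 40 members the 95% interval of the log2 fold change lay within -1 and 1, that is, within a 2-fold change either way, as it did in 71.7% of all genes. The interval of 4 members reached above 1 (Gins1, Cdc6, Fen1 and E2f2) and that of 4 below -1 (Mcm4, Pola1, Ccne2 and Hells). A change of over 2-fold was not bounded by these data in those 8 members.

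**Figure D2:**
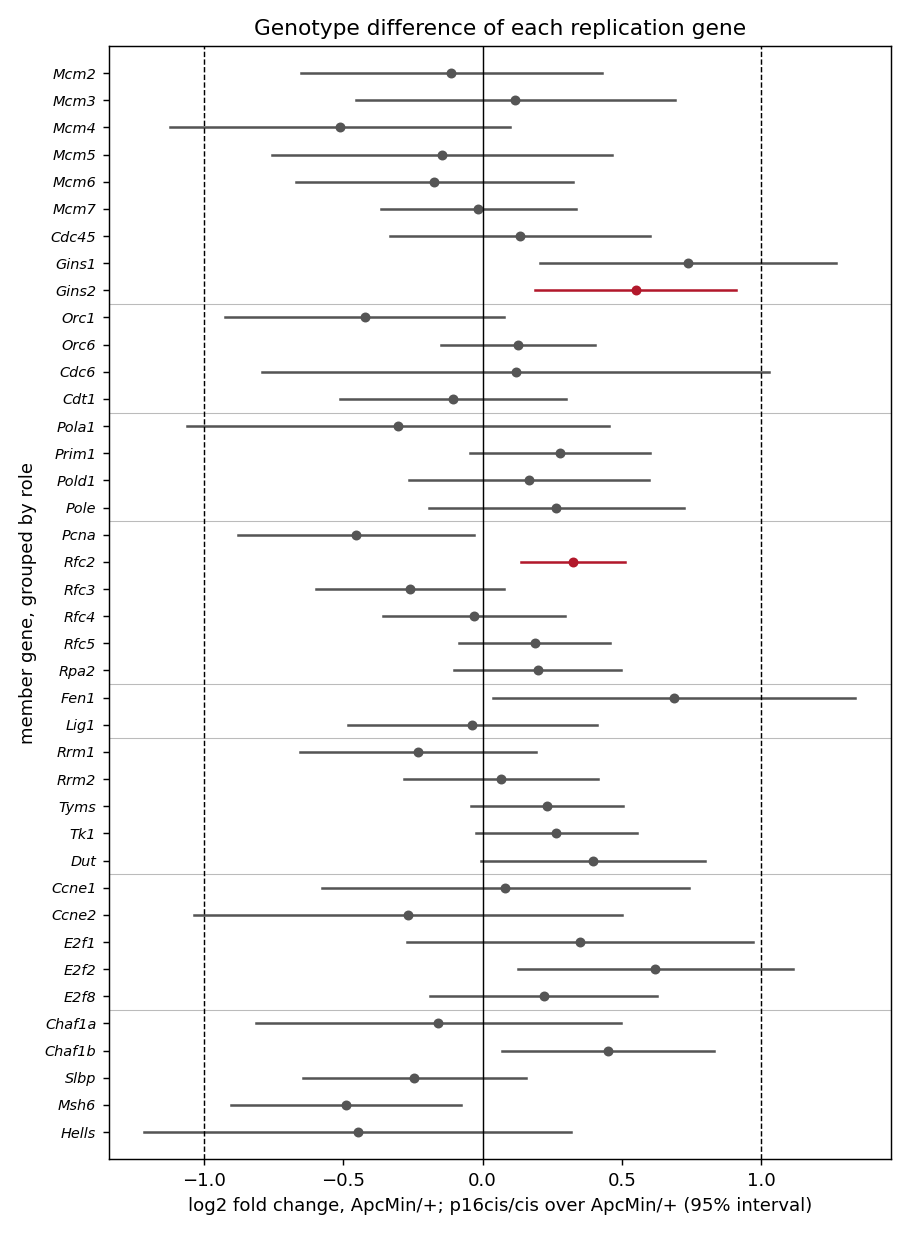
Log2 fold change of each of the 40 members (points) with its 95% interval (lines) from limma, ApcMin/+; p16cis/cis (n = 4) over ApcMin/+ (n = 5), grouped by role, with dashed lines at a 2-fold change. Only Rfc2 and Gins2, in red, passed at an adjusted p under 0.05, and 18 points lie left of 0 and 22 right of it.

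The members varied more from mouse to mouse than most genes. Their median SD within a genotype was 0.35 on the log2 scale, against 0.26 over all genes, while their median absolute log2 fold change was 0.24, against 0.28. Expressed as the mean deviation of the members from their 9-mouse means, the ApcMin/+ mice stood at -0.05, 0.20, 0.06, -0.54 and 0.21 on the log2 scale for replicates 1 to 5. The ApcMin/+; p16cis/cis mice stood at 0.22, -0.19, 0.32 and -0.23 for replicates 1 to 4. The genotype means were -0.02 ± 0.31 (SD, n = 5) and 0.03 ± 0.28 (SD, n = 4). The highest ApcMin/+ mouse was above 2 of the ApcMin/+; p16cis/cis mice, and the ranges overlapped between -0.23 and 0.21.

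ApcMin/+ replicate 4 stood apart from the other mice of its genotype. It had the lowest ApcMin/+ value in 31 of 40 members (77.5%), whereas it was lowest in 31.4% of all genes. In the ApcMin/+; p16cis/cis mice, replicate 3 was highest in 26 of 40 members, and replicates 2 and 4 were lowest in 16 and 19. The mean deviation of ApcMin/+ replicate 4 over all genes was -0.04. Without this mouse, 2 members were higher (Gins2 and Rfc2) and 4 were lower (Mcm4, Pcna, Msh6 and Hells) at an adjusted p under 0.05 in limma, and the median log2 fold change of the members was -0.06. The mouse was singled out by its low values in these same members. Leaving it out raises the ApcMin/+ means of those members, so the 4 lower calls are no separate evidence. Calls rose over the whole table in that fit, in which 3488 of the 14410 genes passed (24.2%), against 16.9% with all mice. Leaving out any other single mouse gave 0 lower members.

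**Figure D3:**
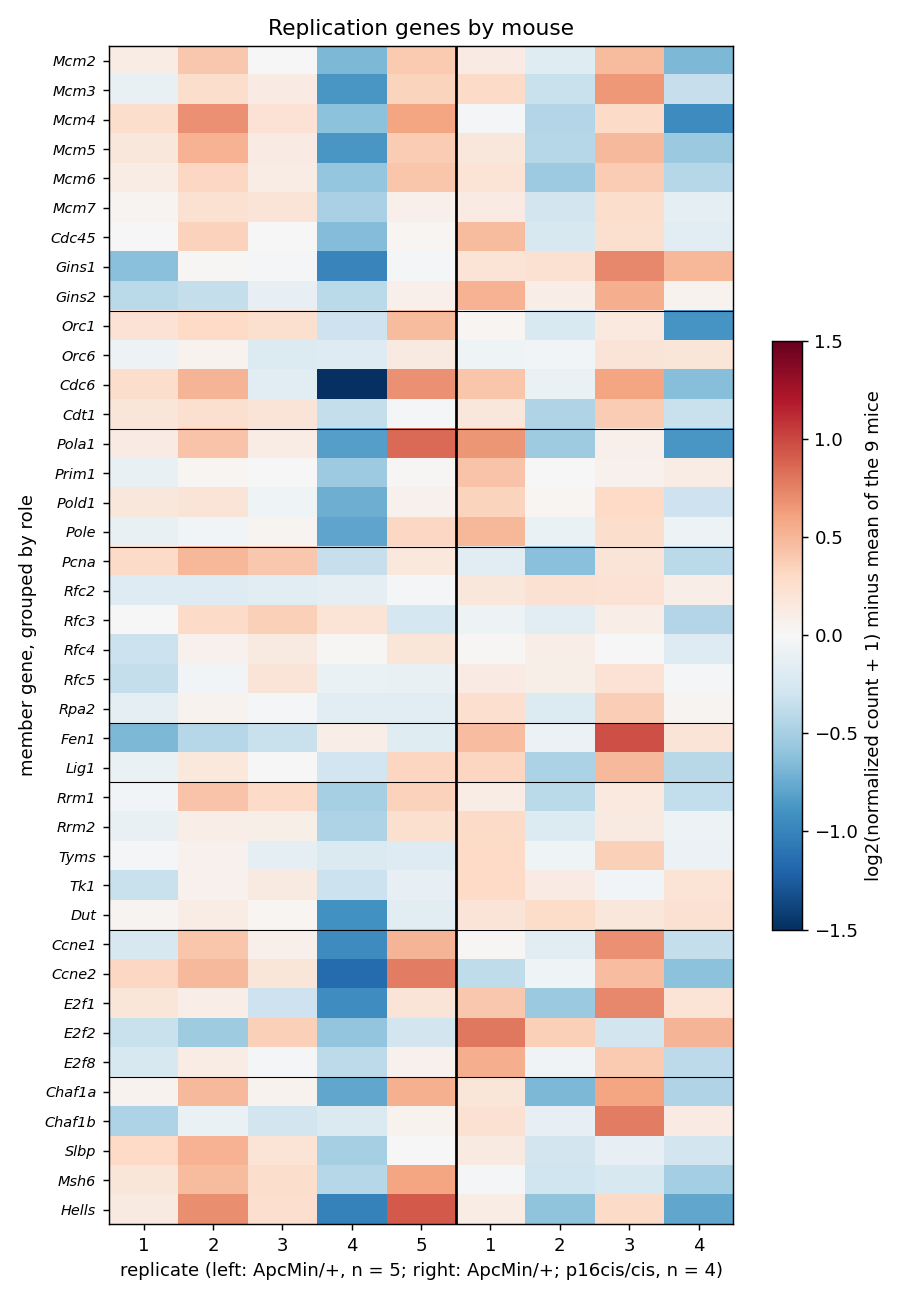
Log2(normalized count + 1) of the 40 members in each mouse as the deviation from the 9-mouse mean, red above and blue below, with ApcMin/+ replicates 1 to 5 left of the vertical line and ApcMin/+; p16cis/cis replicates 1 to 4 right of it. ApcMin/+ replicate 4 was the lowest of its genotype in 31 of the 40 rows, and replicates 1 and 3 of the ApcMin/+; p16cis/cis mice lie mostly above the mean and replicates 2 and 4 mostly below it.

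In bulk RNA a lower value can come from fewer dividing cells or from less RNA per cell, and these cannot be told apart here. Per kilobase of the longest coding transcript and averaged over the 9 mice, Pcna had the highest level of the members (493 normalized counts per kilobase), followed by Mcm6 (353) and Tk1 (351). Cdc6 (31.0) and Fen1 (12.2) had the lowest. The steady Rfc2 (within-genotype SD 0.06 on the log2 scale) and the variable Cdc6 (0.78) marked the ends of the spread between mice.

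The replicative helicase unwinds DNA at the fork and consists of the MCM2-7 ring, CDC45 and the GINS complex. The 6 Mcm genes had log2 fold changes from -0.51 (Mcm4) to 0.12 (Mcm3), with 5 of 6 negative and adjusted p from 0.226 to 0.960 in limma. The GINS genes Gins1 and Gins2 had the largest and the fourth largest positive difference of the 40 members.

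Gins2 (ENSMUSG00000031821.11), which encodes the PSF2 subunit of GINS, had normalized counts of 168, 174, 206, 169 and 235 in ApcMin/+ replicates 1 to 5. In ApcMin/+; p16cis/cis replicates 1 to 4 it stood at 322, 239, 328 and 232. The genotypes overlapped by a single pair of mice, since the lowest ApcMin/+; p16cis/cis value (232) was just under the highest ApcMin/+ value (235). The means were 190.5 ± 29.3 (SD, n = 5) and 280.2 ± 51.7 (SD, n = 4), a log2 fold change of 0.55 (SE 0.17, limma adjusted p = 0.0411). The gene overlaps the coding gene Gse1 on the opposite strand, as 13 of the 40 members overlap such a gene. Whether reads were counted by strand is not given in the sources used here. Gins2 passed without ApcMin/+ replicates 4 or 5 but not without any one of the other 7 mice, with adjusted p from 0.0315 to 0.0978 over the 9 fits that left out 1 mouse.

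Gins1, which encodes the PSF1 subunit, ranged from 50.8 to 104 in ApcMin/+ mice and from 117 to 168 in ApcMin/+; p16cis/cis mice. The genotypes did not overlap, and the log2 fold change of 0.74 (95% interval 0.21 to 1.27) missed the threshold (limma adjusted p = 0.0577). Its call depended on the test, since it passed with DESeq2 on the recovered reads (adjusted p = 0.0332).

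Mcm6, a subunit of the MCM ring and the member of this group with the highest level per kilobase, showed the pattern of the Mcm genes. Its normalized counts were 1608, 1852, 1613, 997 and 1985 in ApcMin/+ replicates 1 to 5 and 1720, 1016, 1943 and 1106 in ApcMin/+; p16cis/cis replicates 1 to 4. A low mouse in the former genotype and 2 low mice in the latter set the spread, and the other 6 mice lay between 1608 and 1985. The log2 fold change was -0.17 (95% interval -0.67 to 0.32, limma adjusted p = 0.639).

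Mcm4 ranged from 398 to 978 in ApcMin/+ mice and from 315 to 744 in ApcMin/+; p16cis/cis mice (log2 fold change -0.51, limma adjusted p = 0.226). Mcm7 had the log2 fold change nearest to 0 of all members, -0.02 (95% interval -0.37 to 0.33). Cdc45, which joins the ring to GINS, had 0.13 (limma adjusted p = 0.701).

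Origin licensing is the loading of the helicase onto DNA in G1, by the origin recognition complex (Orc1 and Orc6), CDC6 and CDT1. None of the 4 genes passed the test, and 2 had positive and 2 negative log2 fold changes. Orc1, the ATPase of the complex, had normalized counts of 176, 186, 179, 122 and 211 in ApcMin/+ replicates 1 to 5 and 154, 129, 167 and 81.5 in ApcMin/+; p16cis/cis replicates 1 to 4. The mice with the ApcMin/+; p16cis/cis genotype lay in the lower part of the range, but ApcMin/+ replicate 4 was below 3 of them. The log2 fold change was -0.42 (95% interval -0.92 to 0.08, limma adjusted p = 0.224).

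Cdt1, which brings the MCM ring to the origin, had 653, 684, 659, 450.0 and 568 in ApcMin/+ replicates 1 to 5. It had 649, 423, 751 and 456 in ApcMin/+; p16cis/cis replicates 1 to 4, with both the lowest and the highest of all 9 mice in this genotype. Its log2 fold change was -0.11 (95% interval -0.51 to 0.30, limma adjusted p = 0.729). Orc6 was among the steadiest members, from 275 to 349.6 and from 304 to 365. Cdc6 was the most variable, with values that differed 4.86-fold between ApcMin/+ mice and 2.37-fold between ApcMin/+; p16cis/cis mice, so that its interval, -0.79 to 1.03, covered nearly a 2-fold change in either direction.

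The DNA polymerases copy the strands after primase has laid down an RNA primer. Of the 4 genes, 3 had positive log2 fold changes and none passed. Prim1, the catalytic subunit of primase, had normalized counts of 348, 383, 378, 258 and 380.3 in ApcMin/+ replicates 1 to 5. Its values were 508, 378, 395.2 and 407 in ApcMin/+; p16cis/cis replicates 1 to 4. A total of 3 ApcMin/+; p16cis/cis mice lay above every ApcMin/+ mouse, and the fourth fell among them. On the log2 scale the fold change was 0.28 (95% interval -0.05 to 0.60, limma adjusted p = 0.216). Pole and Pold1, the catalytic subunits of the leading and lagging strand polymerases, had 0.26 and 0.17, and Pola1, which extends the primer, had -0.30 with a wide interval from -1.06 to 0.46.

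PCNA is the ring that holds the polymerases on DNA, replication factor C (Rfc2 to Rfc5) is the loader that closes the ring, and RPA coats single strands. Rfc2 (ENSMUSG00000023104.9) had the smallest adjusted p of the 40 members. Its normalized counts were 957, 954, 967, 990.2 and 1069 in ApcMin/+ replicates 1 to 5 and 1230, 1279, 1270 and 1169 in ApcMin/+; p16cis/cis replicates 1 to 4. Every ApcMin/+; p16cis/cis mouse lay above every ApcMin/+ mouse, and ApcMin/+ replicate 4, low in most members, was not low in Rfc2.

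The Rfc2 means were 987 ± 47.9 (SD, n = 5) and 1237 ± 50.3 (SD, n = 4), a log2 fold change of 0.33 (SE 0.09, limma adjusted p = 0.0249). The difference was thus small and rested on the small spread between mice. None of the loader's other subunits on the list passed. Rfc3, Rfc4 and Rfc5 had log2 fold changes of -0.26, -0.03 and 0.19 and limma adjusted p of 0.268, 0.912 and 0.323, and the interval of Rfc5 (-0.08 to 0.46) held the value of Rfc2. Rfc2 overlaps the opposite-strand gene Lat2. It missed the threshold without ApcMin/+ replicate 1, 2 or 3 or ApcMin/+; p16cis/cis replicate 2, with adjusted p from 0.0226 to 0.0710 over the 9 fits that left out 1 mouse.

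Pcna had normalized counts of 884, 1025, 961, 568 and 807 in ApcMin/+ replicates 1 to 5. In ApcMin/+; p16cis/cis replicates 1 to 4 it had 644, 467, 831 and 545. ApcMin/+ replicate 4 lay among the ApcMin/+; p16cis/cis mice, and ApcMin/+; p16cis/cis replicate 3 lay among the ApcMin/+ mice. This gave a log2 fold change of -0.45 (95% interval -0.88 to -0.03), which did not pass after adjustment (limma adjusted p = 0.125). It was -0.59 (limma adjusted p = 0.0214) without ApcMin/+ replicate 4, the mouse singled out by its low values in the members. Pseudogenes of Pcna are annotated in the mouse, and how reads shared with them were assigned was not tested. Rpa2, the middle subunit of RPA, had a log2 fold change of 0.20 (limma adjusted p = 0.348).

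**Figure D4:**
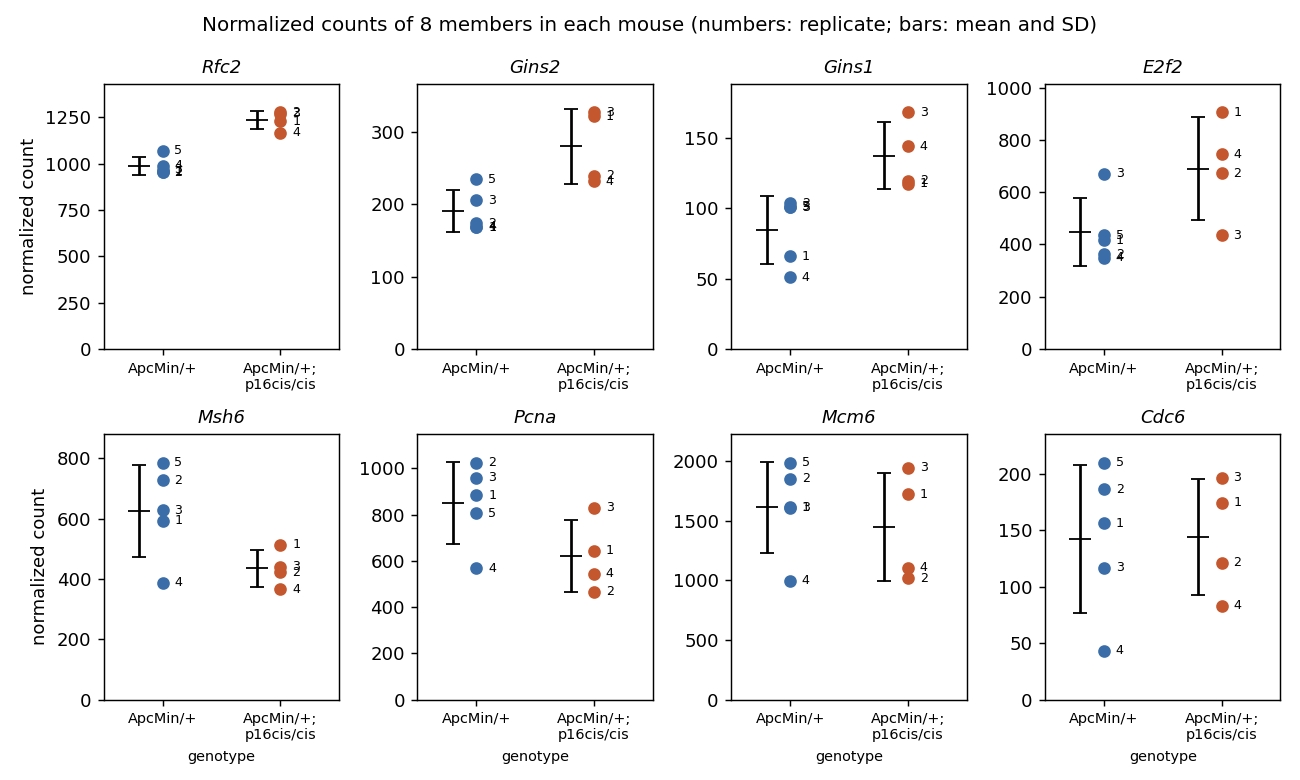
Normalized counts of 8 members in each mouse (points, numbered by replicate) with the mean and SD of each genotype (bars; n = 5 ApcMin/+, n = 4 ApcMin/+; p16cis/cis), each axis starting at 0. Rfc2 and Gins1 do not overlap between the genotypes, Gins2 overlaps by a single pair of mice, and Pcna, Mcm6 and Cdc6 overlap with ApcMin/+ replicate 4 the lowest of its genotype.

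The flap nuclease FEN1 and DNA ligase 1 finish the Okazaki fragments of the lagging strand. Fen1 was listed at 16.7, 19.97, 21.5, 29.2 and 23.8 in ApcMin/+ replicates 1 to 5 and at 37.9, 25.5, 54.1 and 31.3 in ApcMin/+; p16cis/cis replicates 1 to 4. These values rest on few reads, and the counts of the gene, which overlaps Tmem258 on the opposite strand, are uncertain. Its log2 fold change was 0.69 (95% interval 0.04 to 1.34, limma adjusted p = 0.130). Lig1 had 916, 1097, 978, 803 and 1230 in ApcMin/+ mice and 1231, 707, 1379 and 736 in ApcMin/+; p16cis/cis mice. Its means of 1005 ± 165 (SD, n = 5) and 1013 ± 343 (SD, n = 4) were nearly equal while the latter mice fell into 2 high and 2 low values (log2 fold change -0.04, 95% interval -0.48 to 0.41).

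Deoxynucleotides are supplied by ribonucleotide reductase (Rrm1 and Rrm2), thymidylate synthase (Tyms), thymidine kinase (Tk1) and dUTPase (Dut), which keeps uracil out of DNA. Of these 5 genes 4 had positive log2 fold changes and none passed. Dut had normalized counts of 610.4, 645, 607, 318 and 533 in ApcMin/+ replicates 1 to 5 and 683, 721, 670.2 and 699 in ApcMin/+; p16cis/cis replicates 1 to 4. The genotypes did not overlap, the latter mice were close together, and ApcMin/+ replicate 4 lay far below the rest. On the log2 scale the fold change was 0.40 (SE 0.18, limma adjusted p = 0.155).

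Tk1, which salvages thymidine and is switched on in S phase, had 395.02, 522, 548, 398 and 459 in ApcMin/+ mice and 615, 546, 484 and 576 in ApcMin/+; p16cis/cis mice. The 2 genotypes overlapped between 484 and 548, and the log2 fold change was 0.26 (95% interval -0.02 to 0.55, limma adjusted p = 0.186). Tyms had 0.23, Rrm2 0.07 and Rrm1 -0.23 on the log2 scale, with limma adjusted p of 0.221, 0.811 and 0.442. Tk1 overlaps the opposite-strand gene Afmid.

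Cyclin E drives the entry into S phase, E2F1 and E2F2 are activators, and E2F8 is a repressor that is itself induced by E2F. Of these 5 genes 4 had positive log2 fold changes and none passed in limma. E2f2 had normalized counts of 415, 363, 670.2, 348 and 435 in ApcMin/+ replicates 1 to 5 and 907, 672, 434 and 746 in ApcMin/+; p16cis/cis replicates 1 to 4. Its order of mice differed from that of most members, since ApcMin/+ replicate 3 was high. ApcMin/+; p16cis/cis replicate 3, the highest of its genotype in 26 members, was the lowest of its genotype in E2f2. This gave a log2 fold change of 0.62 (95% interval 0.13 to 1.11, limma adjusted p = 0.0795). E2f2 passed with DESeq2 (adjusted p = 0.0445), and in limma without ApcMin/+ replicate 3 or ApcMin/+; p16cis/cis replicate 3 (adjusted p = 0.0391 and 0.0244).

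E2f8 had 508, 650.4, 585, 455 and 628 in ApcMin/+ mice. It had 874, 576, 790.4 and 456 in ApcMin/+; p16cis/cis mice, where replicates 1 and 3 were above all other mice and replicate 4 was at the level of the lowest ApcMin/+ mouse. Its log2 fold change was 0.22 (95% interval -0.19 to 0.63, limma adjusted p = 0.451). E2f1 ranged from 107 to 235 and from 139 to 339.6, with a log2 fold change of 0.35 (limma adjusted p = 0.430). The cyclin E genes Ccne1 and Ccne2 had 0.08 and -0.27, each with an interval more than 1 log2 unit wide.

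The last group packs and checks the new DNA. Chaf1a and Chaf1b are subunits of the histone chaperone CAF-1, SLBP binds the stem-loop of histone mRNAs, MSH6 recognizes mismatches and HELLS remodels chromatin for DNA methylation. Of the 5 genes 4 had negative log2 fold changes, and Chaf1b was the exception. Msh6 had normalized counts of 594, 727, 628, 388 and 785 in ApcMin/+ replicates 1 to 5 and 514, 423, 440.3 and 365 in ApcMin/+; p16cis/cis replicates 1 to 4. The highest 4 mice were all ApcMin/+, and ApcMin/+ replicate 4 lay near the bottom. On the log2 scale the fold change was -0.49 (95% interval -0.90 to -0.08, limma adjusted p = 0.0947). It was -0.65 (limma adjusted p = 0.00621) without ApcMin/+ replicate 4, the mouse singled out by its low values in the members. Msh6 overlaps the opposite-strand gene Fbxo11.

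Slbp had 728, 847, 684, 419 and 595 in ApcMin/+ mice and 648, 487, 544 and 489 in ApcMin/+; p16cis/cis mice. The ranges overlapped, with the lowest value of all in ApcMin/+ replicate 4, and the log2 fold change was -0.24 (95% interval -0.64 to 0.15, limma adjusted p = 0.386). Hells was among the most variable members, from 183 to 701 and from 215 to 452, with a log2 fold change of -0.45 (limma adjusted p = 0.410). The CAF-1 subunits differed in sign, with 0.45 for Chaf1b (limma adjusted p = 0.0949) and -0.16 for Chaf1a (adjusted p = 0.750).

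The members with and without E2F letters in the promoter window are described side by side, with no test. Only exact letters were searched, so the members without them are not a set of genes free of E2F control. The letters also followed role, in 4 of 6 helicase genes and 0 of 5 genes of deoxynucleotide supply. Of the 14 with the letters 4 had positive and 10 negative log2 fold changes, with a median of -0.13. Of the 20 matched members without the letters 14 were positive and 6 negative, with a median of 0.16. In neither set did a member pass, since Rfc2 and Gins2 were not matched to a window. The median SD within a genotype was 0.39 on the log2 scale with the letters and 0.32 without.

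The other genes of the pathway were taken from lists that hold no member. Of 58 other replication and S-phase genes 3 were higher and 1 was lower in ApcMin/+; p16cis/cis mice in limma (6.90%), with a median log2 fold change of 0.06. This was below the share of all genes, of which 16.9% passed, 8.14% higher and 8.75% lower. The higher genes were Rnaseh2a, a subunit of the nuclease that removes RNA from DNA (0.60, adjusted p = 0.00909), Dtymk, which makes dTDP (0.46, adjusted p = 0.0115), and Pold3, a subunit of polymerase delta (0.38, adjusted p = 0.0381). The single lower call was absent under most other settings.

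Among 19 genes of E2F factors, pocket proteins and their partners, 2 were higher and 1 was lower in limma. This was 15.8% of the list, near the 16.9% of all genes. Rb1, which encodes RB, the repressor of E2F, was at 995 to 1247 in ApcMin/+ mice and 722 to 775 in ApcMin/+; p16cis/cis mice (log2 fold change -0.58, SE 0.09, adjusted p = 0.00404). E2f4, the E2F factor that binds pocket proteins in resting cells, was at 1606 to 1733 and 2287 to 2648 (0.54, SE 0.08, adjusted p = 0.00339). Lin37, a subunit of the DREAM complex, had a log2 fold change of 0.65 (adjusted p = 0.0190). The genotypes did not overlap in these 3 genes, as in 7.24% of all genes higher and 8.95% lower. Once GC content and length were corrected for, E2f4 still passed (0.40, adjusted p = 0.0175), and Rb1 (-0.27, adjusted p = 0.107) and Lin37 (0.41, adjusted p = 0.0646) did not. Among females only, Rb1 passed (adjusted p = 0.0290) and E2f4 and Lin37 did not (adjusted p = 0.0554 and 0.0527). Rbl2, which encodes the pocket protein p130, had a log2 fold change of -0.39 and did not pass (adjusted p = 0.0923).

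Genes of the later G2/M phase were also counted, on a list chosen with results of these data known. Of 30 G2/M and mitotic genes 12 were higher in limma and 0 lower (against 8.14% of all genes higher). The genotypes did not overlap in 11, each higher in ApcMin/+; p16cis/cis mice, against 7.24% of all genes. Their median log2 fold change was 0.44, against 0.10 for the members. Without ApcMin/+ replicate 1, ApcMin/+; p16cis/cis replicate 1 or ApcMin/+; p16cis/cis replicate 2, the number of higher mitotic genes was 7, 7 and 6. In females only it was 5. In these fits, in this order, 13.0%, 15.3%, 8.72% and 6.23% of all genes passed in either direction. Whether the lists differ from each other was not tested.

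Ube2c, the ubiquitin-conjugating enzyme of the anaphase-promoting complex, had the smallest p of this list, at 768 to 1150 in ApcMin/+ mice and 1673 to 1800 in ApcMin/+; p16cis/cis mice (log2 fold change 0.93, adjusted p = 0.00172). Mki67, which encodes the proliferation antigen Ki-67, was at 1856 to 3072 and 3240 to 5251 (0.92, adjusted p = 0.00656). Aurka and Foxm1, a mitotic kinase and a transcription factor of mitotic genes, had 0.76 and 0.77 (adjusted p = 0.00404 and 0.00453). No member had a log2 fold change as large as these 4, the largest being 0.74 for Gins1. Genes of the mitotic list were named for a small p or as a check, so these 4 are not typical of it.

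The order of the mice also differed between the lists. ApcMin/+; p16cis/cis replicate 2 had the highest mean deviation of all mice in the mitotic list, 0.38 on the log2 scale, and a low one in the members, -0.19. ApcMin/+ replicate 4 was the lowest mouse in both, at -0.51 and -0.54. The mitotic list stood at -0.19 ± 0.25 (SD, n = 5) in the ApcMin/+ group and, in the ApcMin/+; p16cis/cis group, at 0.24 ± 0.16 (SD, n = 4).

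**Figure D5:**
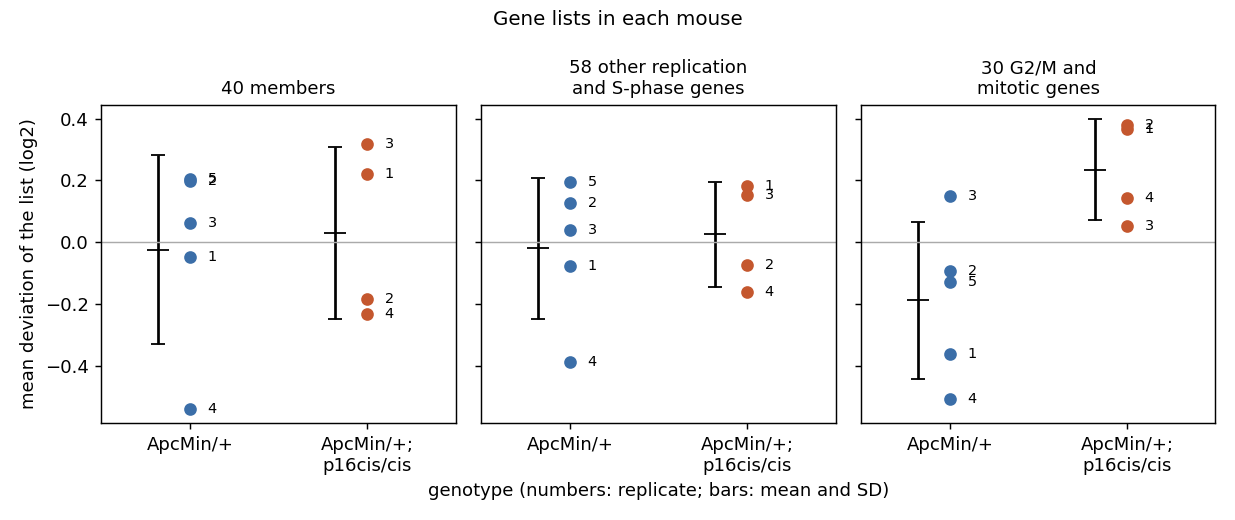
Mean deviation (log2) of 3 gene lists from their 9-mouse means in each mouse (points, numbered by replicate) with the mean and SD of each genotype (bars; n = 5 ApcMin/+, n = 4 ApcMin/+; p16cis/cis). The members stood at -0.02 ± 0.31 and 0.03 ± 0.28 and the G2/M and mitotic genes at -0.19 ± 0.25 and 0.24 ± 0.16.

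Markers of the cells that a crypt preparation can hold were measured beside the members. None of the lists' markers was at 0 in all mice. The summed level of 15 epithelial markers was 414122 to 691799 in ApcMin/+ mice and 409779 to 480716 in ApcMin/+; p16cis/cis mice, and 1 of 15 passed, lower (Slc26a3, a chloride exchanger of surface colonocytes). The 10 markers of crypt stem and progenitor cells summed to 8013 to 13213 and 12744 to 15753, and 2 of 10 were higher (Myc and Ephb2). Of the 15 epithelial markers 10 had a negative log2 fold change, with a median of -0.25. Among the 10 stem and progenitor markers 9 had a positive one, with a median of 0.33. For all genes the shares were 8.14% higher and 8.75% lower.

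The 13 lymphocyte and leukocyte markers summed to 230 to 2334 and 553 to 765, and 1 of 12 tested was lower (Jchain, the joining chain of secreted antibodies). Of these 12, 10 had a negative log2 fold change, with a median of -0.73. The 10 stromal and muscle markers summed to 299 to 1032 and 191 to 427, and 1 of 9 tested was lower (Col3a1, a collagen). All 9 had a negative log2 fold change, with a median of -1.44. The part of these cell types in the values of the members was not tested.

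Sex was not balanced between the genotypes. With sex as a covariate 0 members passed in limma, with adjusted p of 0.0638 for Rfc2 and 0.0742 for Gins2 at log2 fold changes of 0.31 and 0.56. Among the 5 females alone 0 members passed, the median log2 fold change of the members was -0.09, and Rfc2 and Gins2 had 0.29 and 0.40. Calls fell over the whole table as well, to 9.97% of all genes with sex and 6.23% in females only, against 16.9% in the main comparison. With the mitochondrial share as a covariate 0 of all 14410 genes passed, and the median of the members was 0.41.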

How the data were processed

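The authors deposited 1 table of signal values for 9 colonic mucosa libraries, in which gene counts were scaled by DESeq2 size factors. The study's methods name rRNA depletion with oligo dT selection, the BGISEQ-500 platform, BOWTIE2, RSEM and DESeq2. Their versions, the genome build and the annotation are not given in the sources used here. Each column was divided by its smallest step, the value of a single read, and 100% of the positive values were whole within 0.01 reads.

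Genotypes were compared with limma 3.58.1 (R 4.3.3, trended variances) on log2(value + 1) over 14410 genes (a value of 10 or more in 4 or more mice), since the values are normalized. P-values were adjusted by Benjamini-Hochberg over all of these genes. edgeR 4.0.16 and DESeq2 1.42.0 were run on the recovered reads. edgeR (TMM) called 2469 of the same 14410 genes, against 2434 by limma. DESeq2 was given all 29946 genes with any read and called 3251, or 18.9% of those with an adjusted p. Other alternatives were filters, a pseudocount of 0.1, TMM scaling, sex, females only, a block for replicate number, a GC and length correction (loess, span 0.5), the mitochondrial share, thresholds, and each mouse left out in turn. The procedure was tested on simulated counts, and how often it called differences as small as those of the members is not given here.

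The members and gene lists were chosen with earlier results of these data known. Values of every mouse are printed for members that passed and, in each of 8 roles, for the member with the smallest p and the one with the highest level per kilobase. Other members are given by ranges, and from other lists at most 4 genes are named. One gene of these lists is not reported here by name. Overlapping genes and transcript lengths came from GENCODE M21, in which 52480 of 54146 identifiers had the same version. Promoter sequences came from RefSeq tables of GRCm38.p6. Same-numbered mice are different animals, and their deviations from the genotype means correlated between -0.18 and 0.14, so the main comparison was unpaired.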

Additional observations from a re-analysis of the deposited data

Results flagged for a closer look

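In 86 checks, of the 40 members and 3 list scores within each genotype, 2 values stood far from the other mice of their genotype by Dixon's criterion, where chance flags about 1 in 20 groups, or 4.30 here. Prim1 was at 258 normalized counts in ApcMin/+ replicate 4, with the other ApcMin/+ mice between 348 and 383. E2f2 was at 670.2 in ApcMin/+ replicate 3, with the other ApcMin/+ mice between 348 and 435.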

How the results depend on the processing

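The count of higher members, 2 in the comparison reported, was 4 with DESeq2, where 18.9% of all genes with an adjusted p passed in either direction. It was 5 at an adjusted p under 0.1 (with 1 lower), and the share of all genes at that threshold is not given here. It was 0 with Bonferroni adjustment, with a fold change over 2 and with no filter on low values. It was also 0 with sex as a covariate, in females only and with the mitochondrial share. With the mitochondrial share the median log2 fold change of the members was 0.41, and the counts of the other lists were 0. The single lower gene among the other replication genes became 4 with DESeq2, 2 with the replicate block, and 0 with edgeR (TMM or RLE), no filter, sex, females only and the GC and length correction with the replicate block. In females only 5 mitotic genes and 0 genes of the E2F and pocket protein list were higher. The GC and length correction, with or without the replicate block, left 1 higher and 0 lower genes in the latter list. Leaving out 1 mouse at a time gave 0 to 2 higher and 0 to 4 lower members, 2 to 5 higher and 0 to 7 lower other replication genes, 6 to 13 higher mitotic genes, and 1 to 2 higher and 1 to 2 lower genes of the E2F and pocket protein list. Over all genes 2434 passed, against 1437 with sex, 898 in females only, 1304 with the GC and length correction and the replicate block, 0 with the mitochondrial share, and 1183 to 3488 without 1 mouse. The cause of these shifts was not tested.

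The sign of the log2 fold change turned in 14 of the 40 members with the mitochondrial share, 9 in females only, 7 with the GC and length correction and the replicate block, 4 with that correction alone, 3 with the block and 2 with sex, and in none of these settings was it Rfc2 or Gins2. Of the members given mouse by mouse, those that turned with the mitochondrial share were Mcm6 (0.41), Cdt1 (0.50), Pcna (0.0866), Lig1 (0.64) and Slbp (0.0868). Lig1 was also positive with edgeR (0.00728 with TMM, 0.0150 with RLE), DESeq2 (0.0130) and the replicate block (0.0403). With the GC and length correction and the block Lig1 was 0.00836 and Mcm6 0.0144. Leaving out 1 mouse gave -0.25 to 0.0236 for Cdt1 and -0.21 to 0.12 for Lig1. The replicate block called 2 higher and 0 lower members, Gins2 and Rfc2. Of 4 ApcMin/+; p16cis/cis mice 2 correlated best with the same-numbered ApcMin/+ mouse. The alternatives of scaling and pseudocount (TMM, RLE, 0.1) changed no call of a member. With 5 and 4 mice, the median half-width of the members' 95% intervals was 0.43 on the log2 scale, without adjustment for the number of genes. A difference smaller than the half-width of a member's own interval could be missed. A larger one could be missed too, since calls were made after adjustment over all genes tested. Gins1, with a log2 fold change of 0.74 and an interval of 0.21 to 1.27, did not pass (limma adjusted p = 0.0577).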
